A study of Mus musculus with 18 samples.

Results

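The 9 genes described here encode the Myc, Max and Mxd network of transcription factors: Myc, Mycn, Mycl, Max, Mxd1, Mxd3, Mxd4, Mnt and Mlx. They were taken as a list of names, and each gene was read from the probe set whose mean signal across the 18 arrays was highest, with its remaining probe sets as a check. The network holds 22 of the 45101 probe sets and 9 of its 18193 named genes, and all 9 lay among the 10916 genes kept by a filter on low signal. The study measured RNA on Affymetrix arrays in 3 mouse lung carcinoma cell lines, A2C12, betaD5 and cRAF_cMYC, and asked how side population (SP) cells differ from the remaining (nonSP) cells of the same line. Each line gave 3 SP and 3 nonSP arrays. All 3 lines grew out without added transformation from lung tumours of transgenic mice, 8 months old, that carried both a c-myc and a c-raf transgene, so every group compared here derives from Myc-transgenic tissue. All were grown in the same serum-containing medium and none had a drug treatment. The promoter of the transgenes is not given in the sources used here. Whether the Myc probe set reads RNA of the transgene besides that of the mouse's own gene cannot be told apart. Separate cultures behind the replicates are not stated, so a p-value measures only the spread between these samples.

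Myc proteins bind DNA as pairs with Max, at the E-box sequence CACGTG, and raise transcription of genes for growth, metabolism and cell division. Mxd proteins and Mnt also pair with Max, bind the same sequence and bring in Sin3 and histone deacetylase complexes that repress it. Mlx is a second partner protein, which pairs with Mxd1, Mxd4, Mnt and the glucose-responsive factor MondoA. In lung tumours a raised Myc level is a common driver, and amplified MYC, MYCN and MYCL genes are known from human small-cell lung cancer. SP cells are those that pump out a Hoechst dye, mainly through the transporter Abcg2, and are studied as a candidate stem-like fraction.

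The network's genes hold their own E-boxes in 3 of the 8 members that have a promoter entry in the RefSeq table for GRCm38.p6, within the 250 bases before the listed start. Of the 32851 promoters in that table, 6.02% hold CACGTG in the same window. CACGTG reads the same on both strands. The windows of Mxd4 (chr5:34187897-34187956, minus strand), Mnt (chr11:74830774-74830833, plus strand) and Mlx (chr11:101087223-101087282, plus strand) are shown because the network's proteins recognise this motif, which is in capitals:
Mxd4: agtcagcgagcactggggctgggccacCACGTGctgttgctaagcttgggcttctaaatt
Mnt: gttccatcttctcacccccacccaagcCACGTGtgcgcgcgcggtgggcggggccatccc
Mlx: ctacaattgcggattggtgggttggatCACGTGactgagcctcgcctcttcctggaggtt
The E-box lay at bases -219 to -214 from the listed start of Mxd4, at -123 to -118 in Mnt and at -40 to -35 in Mlx. The listed start is that of the promoter entry and can lie inside the gene. In the same build Mlx spans chr11:101086707-101092207, so its window lies within the gene. Mnt spans chr11:74830806-74845725, which begins within its window.

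The Mycn window (chr12:12941970-12942046, minus strand) is shown because Mycn was the member that differed most between lines. It held 3 matches to the E2F motif, searched on both strands as TTTCCCGC, TTTCGCGC, TTTGCCGC or TTTGGCGC, between bases -183 and -161, of which 2 overlap each other. Mycn was the 1 member of 8 with such a match, and 1.86% of the 32851 promoters have one. The matches are in capitals:
Mycn: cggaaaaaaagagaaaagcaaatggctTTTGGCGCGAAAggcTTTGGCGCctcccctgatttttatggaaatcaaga
A match is a description of these letters and no evidence of binding. In the same build Mycn spans chr12:12936093-12941836, Mycl chr4:122995588-123002490, Max chr12:76937269-76962323 and Myc chr15:61985341-61990361.

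Some features of the arrays bear on every line comparison. Signals are log2 values as deposited, where a difference of 1 is a doubling. Array medians ran from 5.80 to 6.06 in A2C12 and from 6.0 to 6.72 in the other lines, so the median gene lay 0.58 lower in A2C12 than in the mean of the others in nonSP cells (log2 difference -0.58) and -0.60 in SP cells. Line differences are therefore also given after each array was centred on its own median, which moved the median gene to -0.04 and -0.11. The pairs labelled betaD5 1 and cRAF_cMYC 3 resembled the other of these lines, and whether their labels were exchanged cannot be told from the files. The labels are kept here. The betaD5 1 nonSP array correlated at 0.982 with its closest cRAF_cMYC array and at 0.925 with its closest betaD5 array, and the cRAF_cMYC 3 nonSP array at 0.988 with betaD5 and 0.929 with its own line. The 3′ to 5′ signal ratio of Gapdh, a sign of RNA quality, was 0.76 and 0.97 (log2) in the SP arrays of betaD5 2 and 3 and between -0.08 and 0.56 elsewhere. Of the alveolar type II markers 2 of 7 on the array passed the filter, Sftpb (7.30 to 8.27) and Abca3 (8.90 to 10.59), and the defining surfactant gene Sftpc (5.13 to 6.60) did not. Of the epithelial junction markers 4 of 7 passed: Epcam and the keratin genes Krt8, Krt18 and Krt19, with Krt19 highest at 9.58 to 12.42. Cdh1 lay at 5.65 to 6.97 in A2C12 and 3.37 to 5.42 in the others and did not pass. Neither did Cldn4 or Cldn7. Of the club cell markers 0 of 3 passed.

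**Figure D1:**
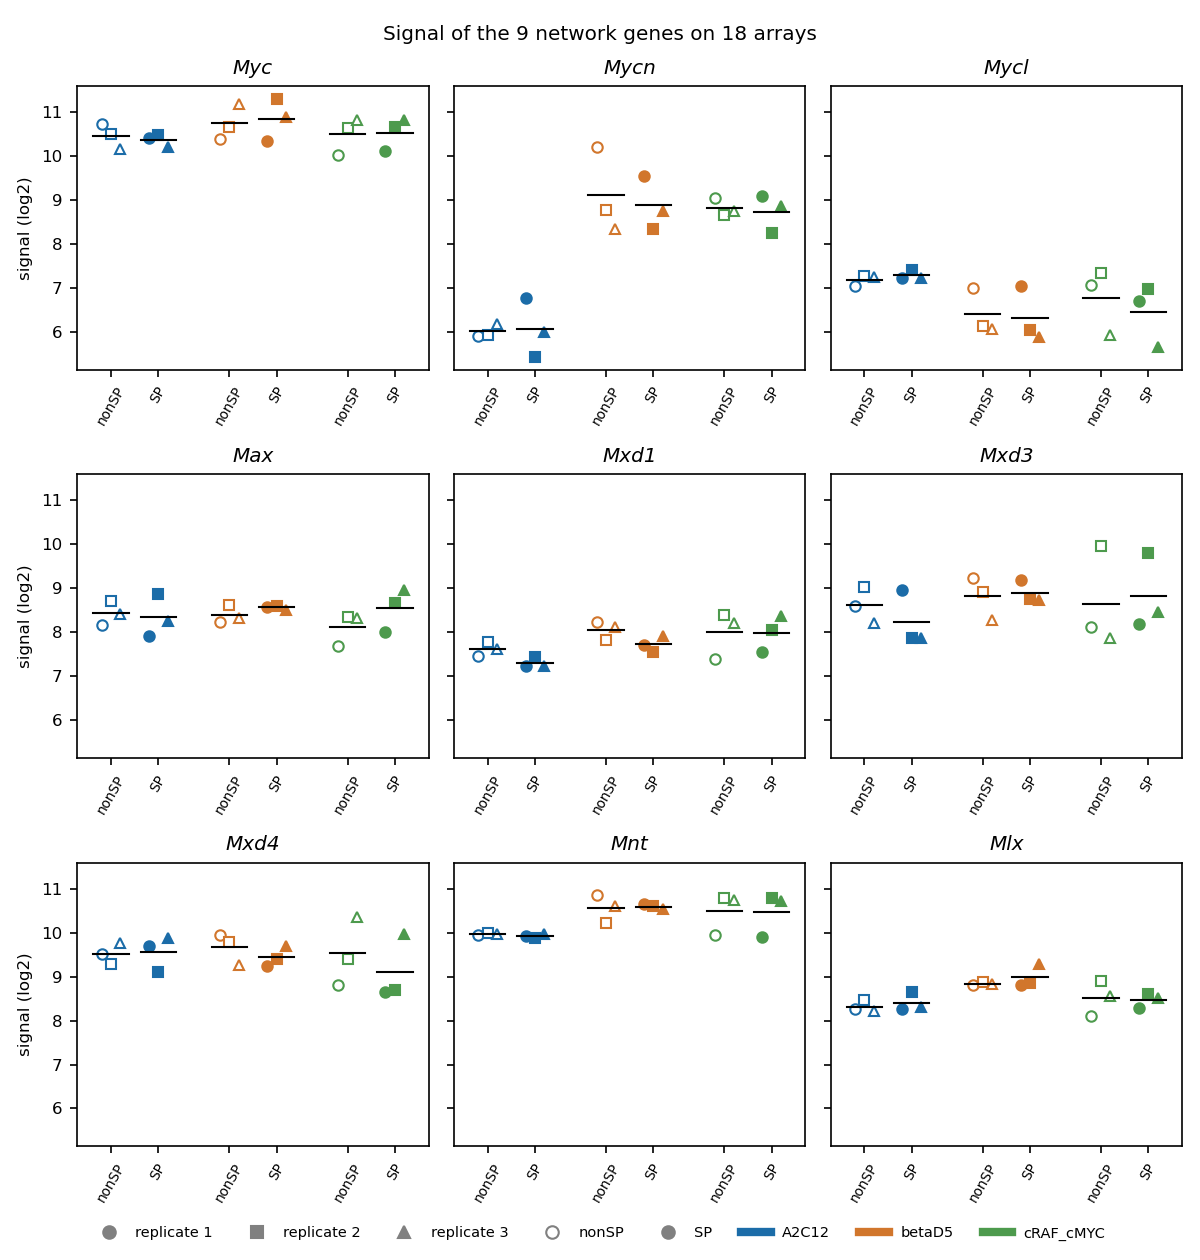
Log2 signal of the 9 network genes (vertical axis) in nonSP and SP cells of A2C12, betaD5 and cRAF_cMYC (horizontal axis), 1 symbol per array with its shape giving the replicate number; bars are means of 3 arrays. All 6 A2C12 arrays lie between 5.43 and 6.77 for Mycn and all 12 others between 8.24 and 10.20, whereas Myc spans 10.02 to 11.30 with the lines mixed.

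Across the 3 lines the Myc family members differed by their highest probe sets. Mycn was low in A2C12 and high in betaD5 and cRAF_cMYC, and Mycl was higher in A2C12 once arrays were centred. The other probe sets of Mycn and of Mycl did not show differences of this size after centring. Myc itself was not called between lines. Myc, the founding member of the family and the transgene's namesake, gave nonSP signals of 10.73, 10.49 and 10.16 in A2C12, 10.39, 10.66 and 11.18 in betaD5, and 10.02, 10.63 and 10.82 in cRAF_cMYC. Its SP signals were 10.42, 10.48 and 10.20 in A2C12, 10.35, 11.30 and 10.89 in betaD5, and 10.11, 10.65 and 10.83 in cRAF_cMYC. The lines overlapped in both fractions, and all 18 values lay within 1.28 log2 units. The difference of A2C12 from the mean of the others was -0.16 in nonSP cells (SE 0.25, 95% interval -0.69 to 0.38; limma adjusted p = 0.614) and -0.32 in SP cells (SE 0.25, adjusted p = 0.285). After centring it was 0.38 (SE 0.19, adjusted p = 0.145) and 0.17 (adjusted p = 0.534), so its sign depended on the scale and neither call passed. Between betaD5 and cRAF_cMYC, Myc differed by 0.25 in nonSP cells (SE 0.29, adjusted p = 0.683) and by 0.31 in SP cells (adjusted p = 0.626).

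Mycn, a family member best known from the embryo and from neuroblastoma, gave the clearest line difference of the network. In A2C12 its signals were 5.91, 5.93 and 6.18 in nonSP cells and 6.77, 5.43 and 6.0 in SP cells. betaD5 gave 10.20, 8.78 and 8.33 in nonSP cells and 9.55, 8.33 and 8.74 in SP cells, and cRAF_cMYC gave 9.04, 8.65 and 8.74 against 9.08, 8.24 and 8.85. The 6 A2C12 arrays did not overlap the 12 others on either scale. The A2C12 means of 6.01 and 6.07 lay below 6.53, the mean signal that the filter on low values asked for, so Mycn was tested only because of its level in the other lines. No detection call was used here, so whether the A2C12 signals stand above background is not known, and no fold is given. A2C12 was lower by a log2 difference of -2.95 in nonSP cells (SE 0.37, 95% interval -3.73 to -2.17; limma adjusted p = 1.46e-05) and of -2.74 in SP cells (SE 0.37, adjusted p = 2.57e-05). Centred, the differences were -2.41 (SE 0.44, adjusted p = 0.000853) and -2.25 (SE 0.44, adjusted p = 0.00133). Without the pairs betaD5 1 and cRAF_cMYC 3 they were -2.69 and -2.54 as deposited. In each of the 27 fits that left out 1 array or 1 pair the call was kept, with adjusted p up to 0.000857.

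The other probe sets of Mycn differed by about as much as the median gene. Probe set 1425923_at spanned 6.92 to 7.59 in A2C12 and 7.18 to 8.23 in the others, with a difference of -0.60 in nonSP cells (limma adjusted p = 0.03 over every probe set) and -0.43 in SP cells (adjusted p = 0.107) as deposited and of -0.06 and 0.06 after centring. Probe set 1425922_a_at gave -0.55 and -0.51, and -0.02 in both fractions after centring. With the mean of its 3 probe sets in place of the highest, the difference was -1.37 in nonSP cells (SE 0.15, limma adjusted p = 6.03e-06). The line difference of Mycn therefore rests on 1 of 3 probe sets, 1417155_at, and which transcripts each reads was not analysed here.

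The summed signals of mesothelial and of fibroblast markers moved with the line difference of Mycn, but not every fibroblast marker did. The 4 mesothelial markers summed to 7.53 to 8.15 (log2 of the summed signal) in A2C12 and to 12.58 to 14.69 in the others. Among them Upk3b lay at 3.80 to 4.61 in A2C12 and 11.45 to 13.94 elsewhere, and Lrrn4 at 3.51 to 4.30 and 9.79 to 12.62. In A2C12 both lay below the filter's 6.53, so they were tested only because of their level in the other lines. For that reason no count of calls is given for this list. The 8 fibroblast markers, of which 7 passed the filter, summed to 13.68 to 14.57 against 15.26 to 16.35. Of these Col1a2 (12.15 to 12.98 against 14.19 to 14.76), Pdgfrb (10.24 to 10.94 against 11.31 to 12.69) and Dcn were lower in A2C12 without overlap as deposited. On that scale the median gene was also lower in A2C12, and 49.2% of all genes were called lower in nonSP cells. The share of all genes without such overlap was not counted. Col1a1 (11.17 to 12.19 against 11.08 to 13.01), Col3a1, Pdgfra (9.15 to 9.79 against 7.94 to 12.92), Lum and Thy1 overlapped. The part of these marker lists in the result was not tested. In such bulk samples fewer cells of a type and less RNA per cell cannot be told apart.

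Mycl, the third family member and named for human lung cancer, ran the other way. Its A2C12 signals were 7.03, 7.26 and 7.25 in nonSP and 7.23, 7.40 and 7.22 in SP cells. betaD5 gave 6.99, 6.13 and 6.05 in nonSP cells and 7.05, 6.03 and 5.88 in SP cells, and cRAF_cMYC gave 7.07, 7.33 and 5.92 against 6.70, 6.96 and 5.66. Replicate 1 of betaD5 lay with the high arrays and replicate 3 of cRAF_cMYC with the low ones, in both fractions, and these are the pairs that resembled the other line across the whole array. On the deposited scale 9 of 12 arrays of the other lines lay below all of A2C12, and after centring 12 of 12 did. A2C12 was higher by 0.90 in SP cells (SE 0.35, 95% interval 0.17 to 1.63; limma adjusted p = 0.0366) and by 0.60 in nonSP cells, which did not pass (SE 0.35, adjusted p = 0.148). The means of betaD5 in both fractions (6.39 and 6.32) and of cRAF_cMYC SP cells (6.44) lay below the filter's 6.53, and that of cRAF_cMYC nonSP cells (6.77) above it. The mean over all 18 arrays was 6.73, so Mycl was tested only because of its level in A2C12. All its calls as higher in A2C12 carry this limit.

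On the centred scale Mycl was higher in A2C12 in both fractions, by 1.14 in nonSP cells (SE 0.38, limma adjusted p = 0.0359) and by 1.39 in SP cells (SE 0.38, adjusted p = 0.0116). The deposited SP call was lost in 11 of 27 fits that left out 1 array or pair: any single A2C12 SP array or A2C12 pair, the SP array of betaD5 2, betaD5 3 or cRAF_cMYC 3, or pair 2 or 3 of betaD5, with adjusted p up to 0.117. Without both pairs betaD5 2 and 3, the pairs with raised Gapdh ratios in SP cells, it was 0.54 (adjusted p = 0.252), and with the 3′ to 5′ ratio as a covariate it was 0.83 and also lost (SE 0.38, adjusted p = 0.0774). Between betaD5 and cRAF_cMYC no member was called with all arrays, and 0.0% of genes were called in either fraction, with 689 and 509 genes at an unadjusted p under 0.05 in nonSP and SP cells. With the pairs betaD5 1 and cRAF_cMYC 3 left out, Mycl was lower in betaD5 than in cRAF_cMYC by a difference of -1.11 in nonSP cells (SE 0.25, adjusted p = 0.00912) and -0.87 in SP cells (SE 0.25, adjusted p = 0.0307). It was the 1 of 9 members called there, lower in both fractions. With the replicate pairs also as a block, its nonSP call was kept and its SP call was lost. The pairs left out were picked because they resembled the other line in these same data, so these calls depend on that choice. In that fit 3.17% of genes were called lower and 8.02% higher in nonSP cells, and 2.67% lower and 8.87% higher in SP cells. The other probe sets of Mycl, 1422088_at and 1422087_at, stayed between 3.72 and 5.67 on every array, and their differences of A2C12 from the others lay between -0.63 and -0.13 as deposited and between -0.10 and 0.35 after centring. As deposited 1422087_at was called lower in A2C12 nonSP cells (difference -0.63, limma adjusted p = 0.0229 over every probe set), the opposite sign to 1434777_at, so the higher Mycl of A2C12 rests on 1 of 3 probe sets.

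**Figure D2:**
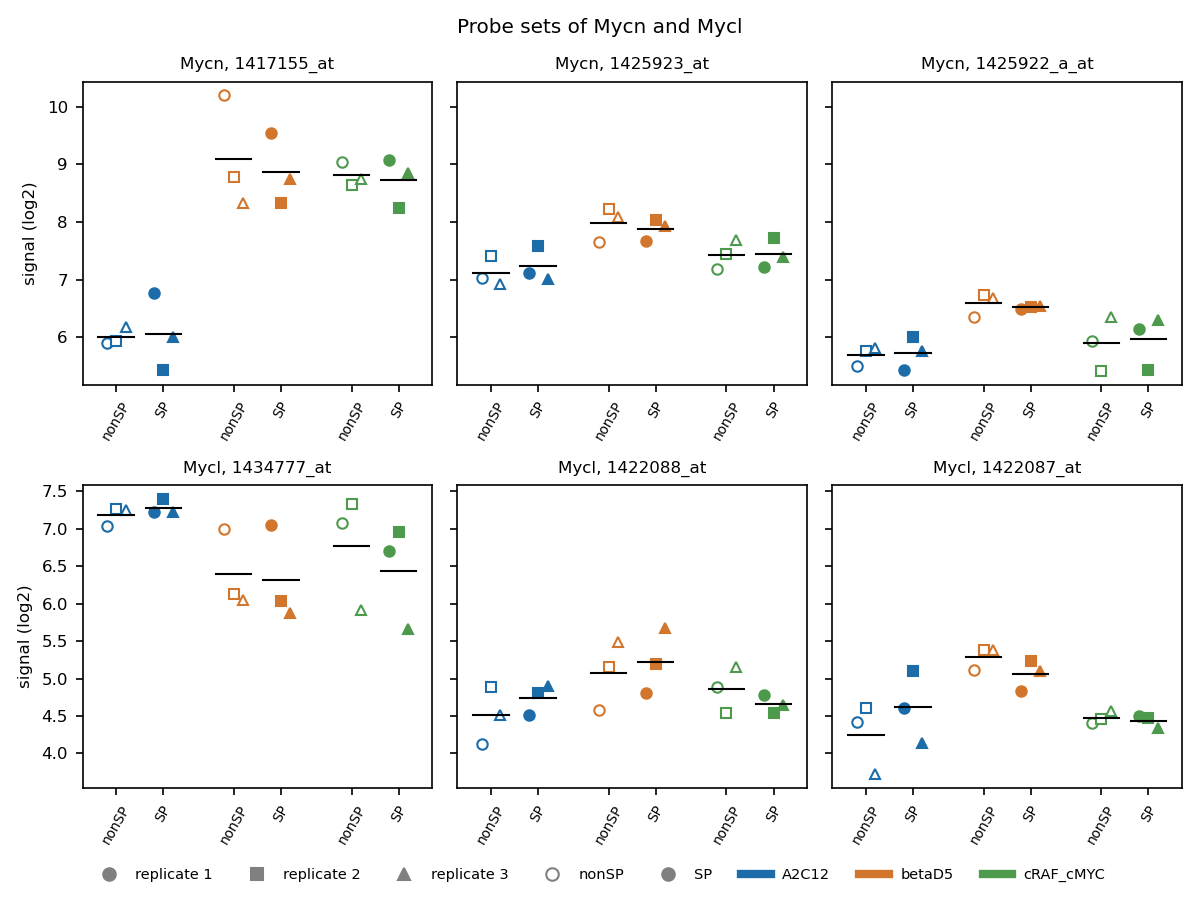
Log2 signal (vertical axis) of the 3 probe sets of Mycn (top) and of Mycl (bottom) on the 18 arrays, by line and fraction (horizontal axis), with bars at the means of 3 arrays. A2C12 stands apart from the other lines for Mycn probe set 1417155_at, whereas its values for 1425923_at and 1425922_a_at overlap those of the others.

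Max and Mlx, the partner proteins, varied less. Max, the shared partner of Myc, Mxd and Mnt, gave nonSP signals of 8.17, 8.71 and 8.42 in A2C12, 8.24, 8.61 and 8.32 in betaD5, and 7.68, 8.34 and 8.32 in cRAF_cMYC. Its SP signals were 7.92, 8.86 and 8.26, then 8.58, 8.60 and 8.51, then 8.0, 8.67 and 8.96 in the same order of lines. The lines overlapped on the deposited scale, with a nonSP difference of A2C12 from the others of 0.18 (SE 0.25, adjusted p = 0.548). Centred, Max was higher in A2C12 in nonSP cells by 0.72 (SE 0.19, limma adjusted p = 0.0102), and the SP difference of 0.28 did not pass (adjusted p = 0.27). Mlx lay between 8.22 and 8.65 in A2C12 and between 8.10 and 9.29 in the others, with differences of -0.36 and -0.33 as deposited and of 0.17 and 0.16 after centring, none of them called.

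Among the repressors, Mnt and Mxd1 were called lower in A2C12 on the deposited scale, and neither call was made after centring. Mnt, which is present in most tissues and opposes Myc, gave 9.96, 10.00 and 9.98 in A2C12 nonSP cells and 9.92, 9.88 and 9.97 in SP cells. betaD5 gave 10.86, 10.23 and 10.62 against 10.65, 10.60 and 10.53, and cRAF_cMYC gave 9.95, 10.80 and 10.74 against 9.91, 10.80 and 10.72. The cRAF_cMYC 1 arrays lay with A2C12, and the 10 remaining arrays of the other lines lay above all of A2C12. The difference was -0.55 in nonSP cells (SE 0.23, limma adjusted p = 0.0495) and -0.61 in SP cells (SE 0.23, adjusted p = 0.0314), close to the shift of the median gene. Centred it was -0.01 (adjusted p = 0.958) and -0.12 (adjusted p = 0.628). With the replicate pairs as a block the deposited nonSP call was lost (adjusted p = 0.0567). The weaker probe set of Mnt, 1418193_at, lay at 4.8 to 5.13 in A2C12 and 5.32 to 6.42 in the others, with no overlap as deposited. It differed by -0.99 in nonSP cells (limma adjusted p = 0.00159 over every probe set) and -0.92 in SP cells (adjusted p = 0.00242), and after centring by -0.45 and -0.43, with 11 of 12 other arrays above all of A2C12. Its centred difference was not tested. All values of this probe set lay below the filter's 6.53, and its p-values come from a fit without that filter.

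Mxd1, a Max partner that rises when cells differentiate, differed by -0.42 in nonSP cells (SE 0.23, adjusted p = 0.127) and by -0.56 in SP cells (SE 0.23, limma adjusted p = 0.0487). With the replicate pairs as a block the SP call of Mxd1 was lost (adjusted p = 0.0663), and centred the differences were 0.12 and -0.07. Among its other probe sets 1422002_at was called lower in nonSP cells (-0.78, limma adjusted p = 0.0273 over every probe set) and 1455104_at in SP cells (-0.72, adjusted p = 0.0308), both as deposited. Mxd3, which is tied to the S phase of dividing cells, and Mxd4 were not called on either scale by their highest probe sets. Of the weaker Mxd4 probe sets, 1422575_at was called lower in A2C12 as deposited, by a difference of -0.79 in nonSP cells (limma adjusted p = 0.0212 over every probe set) and -0.70 in SP cells (adjusted p = 0.0394), and it differed by -0.26 and -0.21 after centring. Mxd3 ranged from 7.86 to 9.97 over the 18 arrays, and both its highest values were the pair cRAF_cMYC 2, at 9.97 and 9.80. Mxd4 ranged from 8.64 to 10.37, and its highest values were the pair cRAF_cMYC 3, at 10.37 and 9.97.

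Of the 9 members, 0 were called higher and 2 lower in A2C12 nonSP cells on the deposited scale, where 2.96% of all genes were called higher and 49.2% lower. In SP cells 1 was called higher and 3 lower, against 2.77% and 50.7% of all genes. On the centred scale 2 were called higher (Mycl and Max) and 1 lower (Mycn) in nonSP cells, against 11.9% higher and 16.4% lower, and 1 higher (Mycl) and 1 lower (Mycn) in SP cells, against 10.1% and 21.3%. Mycn was the member called with the same sign in both fractions on both scales. Mycn and Mycl were tested only because of their level in the lines where they were high. Their calls are therefore not comparable with these shares of all genes.

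**Figure D3:**
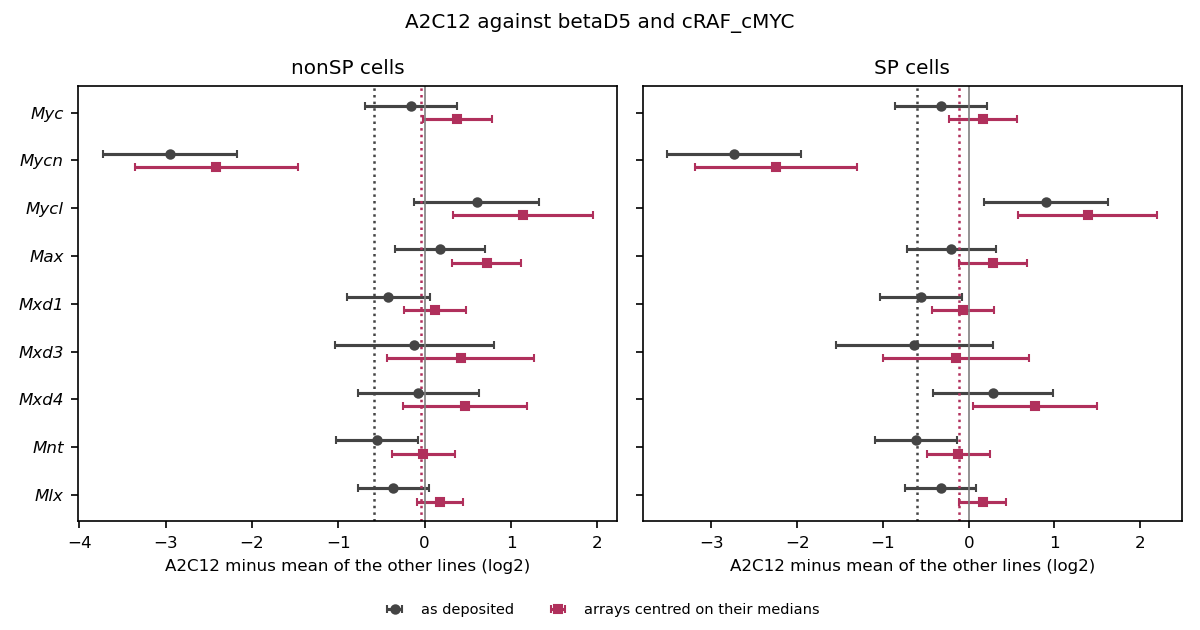
Difference of A2C12 from the mean of betaD5 and cRAF_cMYC (horizontal axis, log2) for the 9 network genes (vertical axis) in nonSP cells (left) and SP cells (right), as deposited and after centring each array on its median; bars are 95% confidence intervals and dotted lines mark the median of all genes on each scale. The Mycn intervals lie below 0 in both fractions and the centred Mycl intervals above 0.

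Between SP and nonSP cells no member of the network passed the test, in any line or in the mean of the lines. The members with the smallest p in the paired fit were Mxd1, lower in SP cells in 7 of 9 pairs, and Max, higher in 6 of 9. Both are reported by value, since neither passed. No gene at all was called by limma in any of these comparisons (0.0% in every one), with and without the replicate pairs as a block. At an unadjusted p under 0.05, 36 genes passed in the mean of the lines without the block and 1437 with it.

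Myc differed between SP and nonSP by -0.31, -0.01 and 0.04 in the A2C12 pairs, by -0.04, 0.64 and -0.29 in betaD5 and by 0.09, 0.02 and 0.01 in cRAF_cMYC. It was thus higher in 5 pairs and lower in 4. With the pairs as a block, the mean over the lines had a 95% interval of -0.17 to 0.20, so a shared shift of Myc above 0.20 or below -0.17 lay outside it. Mycn gave 0.86, -0.50 and -0.18 in A2C12, -0.65, -0.44 and 0.41 in betaD5 and 0.05, -0.41 and 0.11 in cRAF_cMYC, with a mean over the lines of -0.08 and an interval of -0.40 to 0.23. Its pairs split 4 higher and 5 lower. Mycl gave 0.19, 0.13 and -0.02 in A2C12, 0.06, -0.10 and -0.17 in betaD5, and -0.36, -0.37 and -0.26 in cRAF_cMYC. All 3 pairs labelled cRAF_cMYC were lower, while betaD5 1, which resembled that line, was at 0.06. The cRAF_cMYC difference was -0.33 (SE 0.09, limma adjusted p = 0.44 with the block), which did not pass. The test of whether the SP difference of Mycl in A2C12 departs from that in the other lines gave 0.30 (SE 0.11, adjusted p = 0.83), also not passing.

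Max gave -0.25, 0.15 and -0.17 in the A2C12 pairs, 0.34, -0.01 and 0.18 in betaD5, and 0.32, 0.32 and 0.64 in cRAF_cMYC. All 3 pairs labelled cRAF_cMYC were above 0, and so were betaD5 1 and 3. With the block its difference there was 0.43 (SE 0.12, limma adjusted p = 0.443) and in the mean of the lines 0.17 (SE 0.07, 95% interval 0.02 to 0.32, adjusted p = 0.315). The departure of A2C12 from the other lines was -0.39 (SE 0.14, adjusted p = 0.83). Mlx was higher in 4 pairs and lower in 4, with a mean of 0.06 (adjusted p = 0.746).

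Mxd1 gave -0.22, -0.34 and -0.38 in A2C12, -0.54, -0.26 and -0.20 in betaD5, and 0.14, -0.35 and 0.17 in cRAF_cMYC. Every pair labelled A2C12 or betaD5 was lower in SP cells, and those labelled cRAF_cMYC were mixed. The pair cRAF_cMYC 3, which resembled betaD5, was at 0.17, so this split rests on the labels. The mean over the lines with the block was -0.22 (SE 0.07, 95% interval -0.37 to -0.07, limma adjusted p = 0.242), and without the block its adjusted p was 1.0. The other probe sets of Mxd1 gave smaller means of -0.09 (1422002_at) and -0.03 (1455104_at). Mxd4 gave 0.18, -0.19 and 0.11 in A2C12, -0.70, -0.39 and 0.44 in betaD5, and -0.19, -0.70 and -0.39 in cRAF_cMYC, where all 3 pairs were lower (difference -0.43, SE 0.18, adjusted p = 0.586 with the block). Its mean over the lines was -0.20 (SE 0.11, adjusted p = 0.439). The other probe sets of Mxd4 were divided. The second highest, 1434379_at, gave 0.27, -0.63 and 0.07 in cRAF_cMYC and a mean over the lines of -0.02. The weaker 1422574_at had a mean of -0.20, and 1422575_at was lower in 9 of 9 pairs by amounts from -0.28 to -0.01.

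Mxd3 and Mnt had means close to 0. Mxd3 gave 0.35, -1.16 and -0.35 in A2C12, -0.04, -0.16 and 0.46 in betaD5, and 0.08, -0.17 and 0.60 in cRAF_cMYC, for a mean of -0.04 (adjusted p = 0.924 with the block). Mnt was lower in 7 of 9 pairs, but its differences stayed within 0.12 of 0 in A2C12 and 0.04 in cRAF_cMYC, and its mean was -0.02 (95% interval -0.15 to 0.12, adjusted p = 0.943 with the block).

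**Figure D4:**
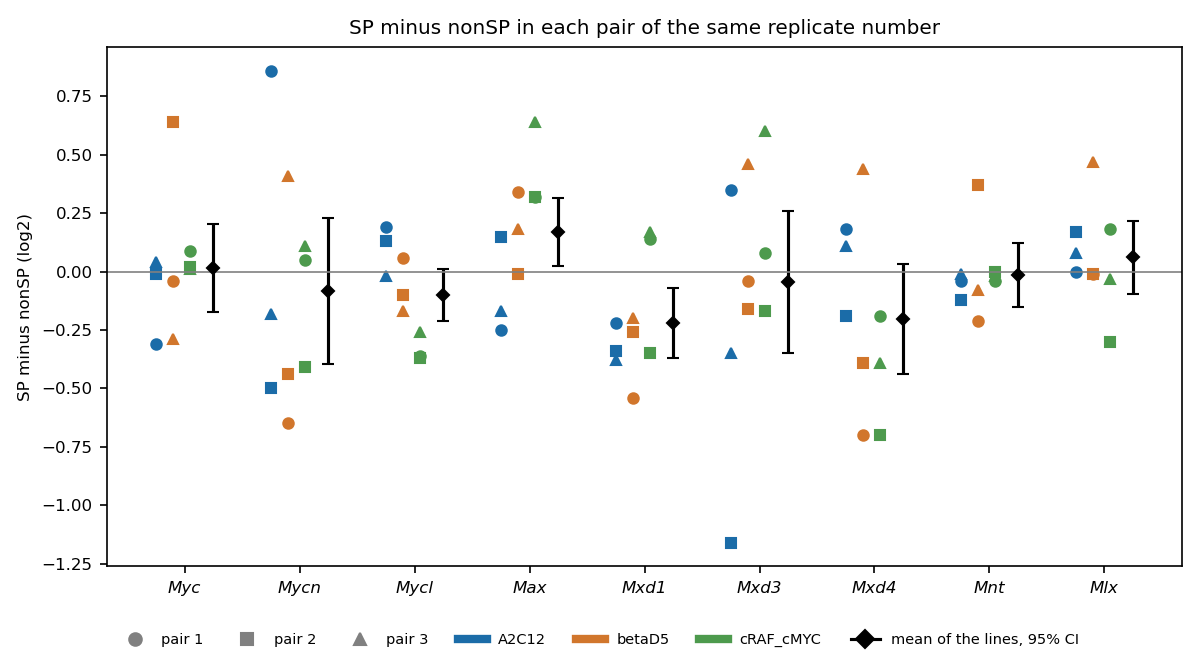
SP minus nonSP difference (vertical axis, log2) of the 9 network genes (horizontal axis) in each of the 9 pairs of the same line and replicate number, with the mean of the lines and its 95% confidence interval from the fit with the pairs as a block (black). The intervals of Max and Mxd1 do not include 0, and neither gene passed after adjustment over all genes (adjusted p = 0.315 and 0.242).

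The network's partners and targets were read as lists. No gene of any list was called between SP and nonSP cells, so these counts describe signs only. In the mean of the lines 54.3% of all genes lay above 0, with a median of 0.01. The remaining network members, the Max partners Mxi1 and Mga with MondoA (Mlxip) and the Myc-binding repressor partner Zbtb17, lay above 0 in 4 of 4 tested (5 listed) with a median of 0.17, led by Mga at 0.17 (SE 0.07, limma adjusted p = 0.302 with the block) and Mxi1 at 0.16 (SE 0.05, adjusted p = 0.263). Activated Myc targets outside ribosome biogenesis lay above 0 in 17 of 20, with a median of 0.11. Among them Hspe1, a mitochondrial chaperonin subunit, was higher in SP cells in 9 of 9 pairs by 0.06 to 0.20 (mean 0.12, SE 0.03, adjusted p = 0.207), and Hk2, a hexokinase, had a mean of 0.30 (SE 0.10, adjusted p = 0.26). Genes that Myc represses lay above 0 in 3 of 8 with a median of -0.04, and Ndrg1 had the widest range of pairs, from -0.30 to 1.71 (mean 0.49, SE 0.15, adjusted p = 0.234).

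Coactivators and chromatin partners of Myc lay above 0 in 6 of 10 with a median of 0.09, and Actl6a, a subunit shared by several chromatin remodelling complexes, was higher in 8 of 9 pairs (mean 0.25, SE 0.06, limma adjusted p = 0.212 with the block). The acetyltransferase gene Ep300 had a mean of 0.16 (SE 0.06, adjusted p = 0.276). The corepressors of Mxd and Mnt lay above 0 in 6 of 7 with a median of 0.03. Their exception was Sin3b, a scaffold of the deacetylase complex, which was lower in 8 of 9 pairs (mean -0.17, SE 0.05, adjusted p = 0.232), while its relative Sin3a had a mean of 0.15 (adjusted p = 0.271). Regulators of Myc protein turnover lay above 0 in 8 of 14 with a median of 0.03, and Fbxw7, the ubiquitin ligase subunit that marks Myc for degradation, had a mean of 0.26 (SE 0.08, adjusted p = 0.236). The deubiquitinase Usp36 had a mean of 0.19 (SE 0.09, adjusted p = 0.397). Both targets of MondoA and Mlx lay below 0. Arrdc4, an arrestin-domain gene that MondoA and Mlx switch on with glucose, was lower in SP cells in 9 of 9 pairs with differences from -0.49 to -0.01 (mean -0.24, SE 0.05, adjusted p = 0.181), and Txnip was lower in 5 of 9 (mean -0.11, adjusted p = 0.578).

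Between lines, the partner and target lists were mostly lower in A2C12, as the median gene was, so the centred scale is used for the members named. In nonSP cells as deposited, 9 of 10 coactivators, 6 of 7 corepressors, 11 of 14 turnover regulators, 14 of 20 activated targets, 2 of 8 repressed genes and 1 of 4 remaining network members were called lower, and no gene of these lists was called higher, against 49.2% of all genes lower and 2.96% higher. After centring, 4 of 10 coactivators were called lower and 1 higher, against 16.4% and 11.9% of all genes. Ep400, a remodelling ATPase of the Trrap complex, differed by -0.89 (SE 0.15, limma adjusted p = 0.000339), with signals of 9.08 to 9.55 in A2C12 and 10.27 to 11.37 in the others. Pim1, a kinase that acts with Myc, differed by -1.08 (SE 0.22, adjusted p = 0.00184), and Wdr5, which anchors Myc to chromatin, by -0.83 (adjusted p = 0.00197). Trrap, the scaffold of Myc's acetyltransferase complexes, differed by -0.57 (adjusted p = 0.0205). In SP cells 7 of 10 coactivators were lower and none higher after centring, against 21.3% and 10.1% of all genes, with Ep400 lower by -1.03 (adjusted p = 8.47e-05).

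After centring 4 of 20 activated targets were called lower and 2 higher in nonSP cells, shares near the 16.4% and 11.9% of all genes. Odc1, the rate-limiting enzyme of polyamine synthesis and a textbook Myc target, was lower in A2C12 by a difference of -1.60 in nonSP cells (SE 0.16, limma adjusted p = 5.46e-06) and -1.58 in SP cells (adjusted p = 5.53e-06). Its signals were 10.62 to 11.47 in A2C12 and 12.32 to 13.65 in the others, with no overlap. Cdc25a, a phosphatase of the cell cycle, differed by -1.21 (adjusted p = 0.000586) and Cad, of pyrimidine synthesis, by -1.19 (adjusted p = 0.0015) in nonSP cells. Ldha, which makes lactate, went the other way by 0.99 (SE 0.18, adjusted p = 0.00066). In SP cells 4 of 20 were lower and 1 higher, against 21.3% and 10.1% of all genes, with Cdc25a at -1.56 (adjusted p = 5.57e-05), Cad at -1.36 (adjusted p = 0.000468) and the purine enzyme gene Ppat at -1.05 (adjusted p = 0.00165).

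In nonSP cells 2 of 14 turnover regulators were lower after centring and none higher, near the 16.4% of all genes called lower. Skp2, a ubiquitin ligase subunit, differed by -1.10 (SE 0.22, limma adjusted p = 0.00198), from 8.73 to 9.25 in A2C12 to 10.04 to 11.45 in the others, and Axin1, a scaffold, by -0.72 (adjusted p = 0.00247). In SP cells 5 of 14 were lower, against 21.3% of all genes, with Skp2 at -1.30 (adjusted p = 0.000481), Axin1 at -0.86, Cip2a, a phosphatase inhibitor that protects Myc, at -1.05 (adjusted p = 0.00136), and Fbxw7 at -0.91 (adjusted p = 0.00734). Read against the same shares, corepressors were lower in 2 of 7 in nonSP cells, Rbbp7 at -0.36 (adjusted p = 0.0253) and Rbbp4 at -0.35 (adjusted p = 0.049), and in 3 of 7 in SP cells, where Sin3a differed by -0.72 (adjusted p = 0.00135). Among repressed genes Cebpa, a differentiation factor, was higher in nonSP A2C12 cells by 0.96 (adjusted p = 0.0384). Its signals overlapped, at 6.57 to 7.47 in A2C12 and 5.68 to 7.30 in the others. The others reached below the filter's 6.53, so Cebpa may have been tested only because of its level in A2C12. Pdgfrb, also counted among the fibroblast markers, was lower in nonSP A2C12 cells by a difference of -0.88 (adjusted p = 0.0312). Arrdc4 and Txnip were not called in nonSP cells and were higher in SP cells of A2C12 by 0.67 (adjusted p = 0.0248) and 0.88 (adjusted p = 0.0389). The mesothelial and fibroblast sums given with Mycn also separate A2C12 from the others. They are lower in A2C12, whereas some of the genes named here were higher there. The part of these sums in the line differences was not tested.

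For each member the gene with the most similar values over the 18 arrays was found by Pearson correlation, as a description over arrays that share their lines and their scaling. Myc was most like Pde12 (r = 0.933, and 0.847 after centring), then Cgref1 (0.923), Ap1g2 (0.906), Ecd (0.903) and Wdr62 (0.898). Mycn was most like S100a16 (0.985, and 0.965 after centring), which ranged from 8.95 to 9.61 in A2C12 and from 10.28 to 11.89 elsewhere. Mycl was most like Csgalnact1 (0.981, and 0.978 after centring). The likeness of Mxd1 to Ankhd1 (0.888) and of Mlx to Caskin2 (0.936) fell to 0.418 and 0.393 after centring. Mnt was most like Odr4 (0.966), Mxd3 like Hibch (0.924), Mxd4 like Stxbp6 (0.871) and Max like Snrnp48 (0.867).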

How the data were processed

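RNA of 18 samples was labelled with the 3′ IVT Express kit and hybridised to Affymetrix arrays, per the labels' protocols. The deposited values are log2 signals of 45101 probe sets, from 2.28 to 15.28, and Affymetrix Expression Console is named in the submitters' processing notes. The summary method is not given in the sources used here. Symbols came from the platform annotation: 34945 probe sets had 1, 932 several and 9160 none, and 64 were controls. Symbols were updated through RefSeq (34741 matched). The 40% of genes with the lowest means were left out.

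limma 3.58.1 in R 4.3.3 was fitted to 6 group means over all 18 arrays, with Benjamini-Hochberg adjustment over 10916 genes and calls at an adjusted p under 0.05. It was tested on simulated data. Recovery of most changed genes was required there of the fit with the pairs as a block and of the line contrast. It was not required of the SP fit without the block. Arrays of the same line and number deviated together in all 9 pairs (r from 0.426 to 0.952), although betaD5 3 correlated better with another number (0.684 against 0.600), so a fit with the pairs as a block was also made. For line comparisons the block was random (correlation 0.841). Alternatives changed scaling, filter, probe set choice, trend, pairs and single arrays. The number of arrays limits the precision. The members and lists were chosen with earlier results of these data known. All members were named. From each list all genes past the threshold were named, up to 4 with the smallest p, or else 2.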

Additional observations from a re-analysis of the deposited data

How the results depend on the processing

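Mycn kept its call and sign in the line comparison under every alternative in which it was tested, single arrays and pairs left out included, but with the mean of its 3 probe sets the difference was -1.37 in nonSP and -1.22 in SP cells against -2.95 and -2.74, and no member was called between SP and nonSP cells under any. Mnt in nonSP cells turned to 0.06 with quantile normalization and to 0.13 with arrays centred and the pairs betaD5 1 and cRAF_cMYC 3 left out, and Mnt in SP cells to 0.05 with quantile normalization. With that centring and omission Mxd1 in SP cells turned to 0.04 and Mxd4 in nonSP cells to 0.76 (adjusted p = 0.025). Mxd4 in SP cells passed at 0.91 with quantile normalization, and Mxd1 in nonSP cells at -0.58 with the mean of its probe sets. The deposited calls of Mnt were lost in 21 (nonSP) and 12 (SP) of 27 omissions of 1 array or pair, and that of Mxd1 in SP cells in 23.

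Genes called for A2C12 against the others numbered 5697 in nonSP and 5839 in SP cells as deposited, 3541 and 3683 with quantile normalization, 3095 and 3426 centred, 2912 and 3280 centred with the replicate block, and 10318 and 10425 over every probe set, and 9376 in nonSP cells without the filter. Higher calls made up 5.67% and 5.17% as deposited, 42.0% and 32.1% centred and 46.3% and 46.5% after quantile normalization. Omitting 1 array or pair gave 3537 to 7238 and 3863 to 7295, the lowest without pair A2C12 3, and 0 to 1 between betaD5 and cRAF_cMYC. Without betaD5 1 and cRAF_cMYC 3 that comparison called 1222 and 1260 genes, 692 and 711 with the replicate block, and 1895 and 1664 centred. SP against nonSP in betaD5 called 15 genes with the replicate block and those pairs left out and 34 with the block and the 3′ to 5′ ratio as covariate, which called 3 in the mean of the lines. The centred fits with a block or with pairs left out were chosen after seeing the data. With the lowest 60% of genes left out 5 of 9 members were tested, and with the mean of all probe sets 8. The cause was not tested.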
